A study of Mus musculus with 9 samples.

Results

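The comparison asked what a constitutively active phosphoinositide 3-kinase (caPI3K) adds to hearts that already overexpress the receptor for insulin-like growth factor 1 (IGF1R). It rested on 6 of the 9 arrays of the series, chosen by their titles: 3 IGF1R-caPI3K arrays and 3 IGF1R arrays without a PI3K transgene. Each array held total RNA from both ventricles of 1 female transgenic mouse aged 3 months. The IGF1R mice carried the IGF1R transgene alone, and the IGF1R-caPI3K mice came from a cross of that line with mice carrying an active p110 catalytic subunit. The other 3 arrays, from IGF1R-dnPI3K mice with a dominant negative p110, entered no test here, and their values are given beside some single genes. A gene given without them is not thereby shown to be particular to active PI3K. All 3 groups thus carry the IGF1R transgene, and neither mice without a transgene nor mice with a PI3K transgene alone were analysed here, so no value is relative to a normal heart. No source used here names the promoter or founder line of a transgene. The comparison is described across the 12422 probe sets that are not array controls, of which 7595 were bright enough to be tested.

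IGF1R is a receptor tyrosine kinase that recruits PI3K through insulin receptor substrate adaptors. PI3K makes the membrane lipid PIP3, which brings the kinase Akt to the membrane. Akt restrains the FoxO transcription factors and feeds the mTOR complex and its S6 kinases, which drive protein synthesis. In heart muscle this pathway is known for physiological growth, the enlargement of the heart seen in postnatal development and with exercise, while stress growth is marked by fetal genes such as those of the natriuretic peptides and skeletal actin.

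Of the 7595 probe sets tested, 737 (9.70%) passed a limma test at a Benjamini-Hochberg adjusted p of 0.05, 328 higher and 409 lower in IGF1R-caPI3K hearts. Signals are linear intensities as deposited, scaled alike on every array, and changes are log2 differences of IGF1R-caPI3K minus IGF1R with their SE. With each gene read from its brightest probe set, 264 of 5748 genes (4.59%) were higher and 295 (5.13%) lower, and the median change was -0.03. Called changes were small, with a median size of 0.56 on the log2 scale. The signals of the groups did not overlap for 2534 probe sets (33.4%). Called genes were picked by these same values, so lack of overlap in a called gene below is no further support for it. Markers of the labelled tissue were high in both groups: all 10 cardiomyocyte markers on the array were bright enough to be tested, and Myh6, the alpha myosin heavy chain of the adult mouse heart, had IGF1R signals of 20274 to 22061 and IGF1R-caPI3K signals of 21228 to 22829.

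The counts depended on which arrays entered the fit. With all 9 arrays sharing 1 estimate of spread, 17 probe sets passed (1421 at an unadjusted p under 0.05, against 2111 with 6 arrays). The genes below that passed with 9 arrays were Txnrd3, Cela1, Chad, Atp6v0e2, Cdk4, Cd79a, Ryr2 and Ckm. Leaving out IGF1R replicate 2 gave 434 calls, IGF1R replicate 3 327, IGF1R-caPI3K replicate 1 245, replicate 2 287 and replicate 3 313. The balance of directions depended on the scaling: 44.5% of the calls were higher on the deposited scale, 43.6% after quantile normalization and 70.8% with the arrays set to a common median. That last scaling took the median change of all probe sets from -0.04 to 0.07. Under all 3 scalings together, 254 probe sets were called higher and 245 lower.

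The arrays of the groups also differed in measures that no gene of interest enters. For CreX, a control transcript added during processing, the 3' over 5' signal was 1.26, 1.05 and 1.22 on the IGF1R arrays and 1.89, 1.77 and 1.74 on the IGF1R-caPI3K arrays. That of Gapdh, read from the heart RNA itself, was 0.774 ± 0.038 and 0.862 ± 0.016 (SD, n = 3 each). Neither ratio overlapped between the groups, and the exact permutation p of 0.1 (two-sided, 0.2 adjusted over 8 ratios) is the lowest that 3 arrays against 3 allow. The change also followed the signal: with probe sets ranked by signal and split into 10 bins, the median went from 0.10 in the brightest bin to -0.12 in the dimmest, and in the brightest 137 were called higher and 48 lower. After quantile normalization, which forces equal distributions, these counts were 74 and 86 and the medians 0.01 and -0.02. Transgene and handling of the RNA or arrays therefore cannot be told apart in these 6 hearts.

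**Figure D1:**
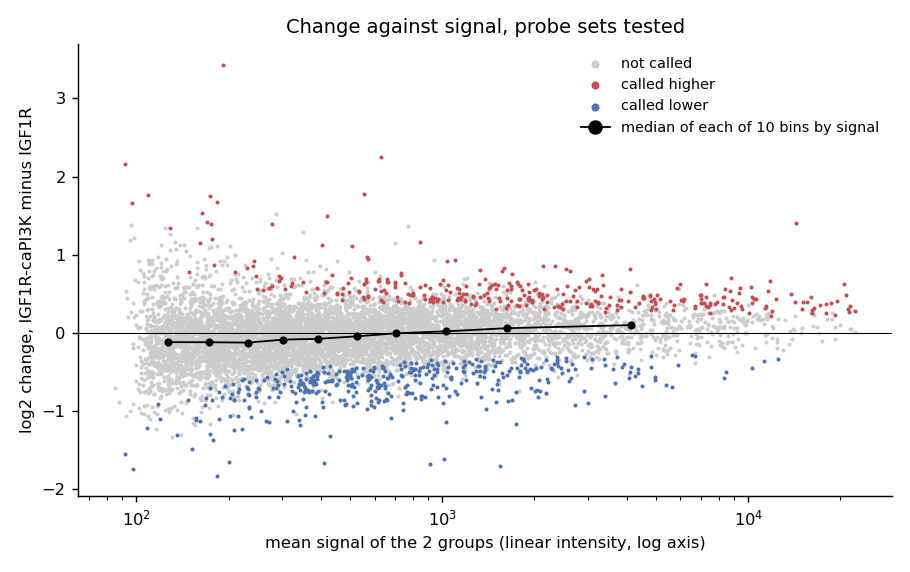
Log2 change of IGF1R-caPI3K minus IGF1R against the mean signal of both groups (log axis), 1 point per probe set tested, with the 328 called higher in red and the 409 called lower in blue. The black line joins the medians of 10 bins by signal and rises from -0.12 at the dim end to 0.10 at the bright end.

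**Figure D2:**
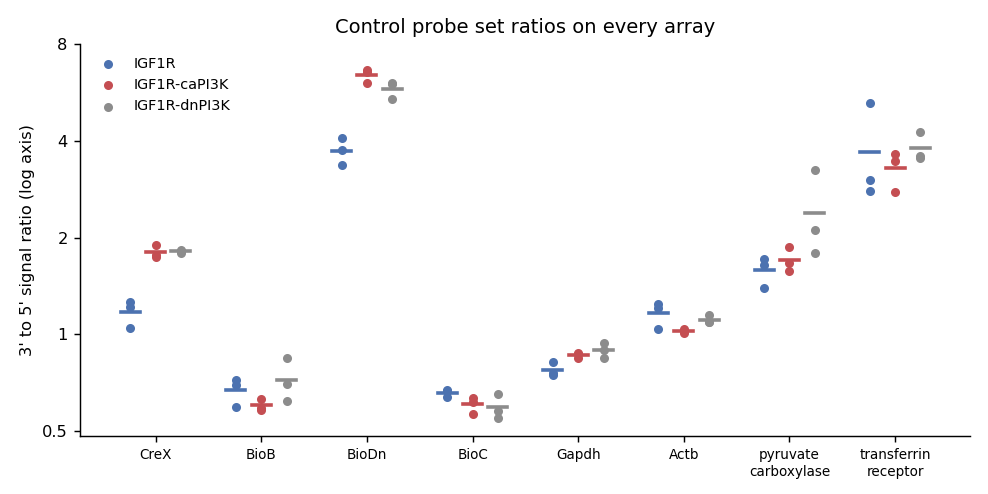
Ratio of 3' to 5' signal of 8 control transcripts on each array (log axis), with a bar at the mean of each group of 3. For CreX the 3 IGF1R arrays lie at 1.05 to 1.26, below the 3 IGF1R-caPI3K arrays at 1.74 to 1.89.

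Few genes of the pathway itself passed the test. The lists are short and only 4.59% of all genes were higher and 5.13% lower, so these counts are no result about the pathway. Igf1r read 986, 868 and 854 on the IGF1R arrays, 1199, 1282 and 933 on the IGF1R-caPI3K arrays and 1977, 1660 and 1680 on the IGF1R-dnPI3K arrays. The first 2 groups overlapped, and the change of 0.32 ± 0.13 did not pass (adjusted p = 0.154). No source used here says whether this probe set, or that of Pik3ca, which encodes a p110 subunit, reads the transgene, so neither checks the labels. Pik3ca read 398, 435 and 419 in IGF1R and 614, 466 and 433 in IGF1R-caPI3K hearts (0.26 ± 0.15, adjusted p = 0.295). Of 11 tested genes for IGF and insulin receptor signalling none passed, the nearest being Igf2r (-0.38, adjusted p = 0.0713), the receptor that clears IGF2, and Ptpn1 (0.36, adjusted p = 0.0851), a phosphatase of the insulin receptor. None of 5 IGF binding proteins passed. The median change of the receptor signalling genes was 0.16, and 1 of them rose with a common median.

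Downstream, 1 of 11 genes of the PI3K and Akt list and 1 of 11 of the mTOR and S6 kinase list rose (9.09% each, beside 4.59% of all genes). Akt2, the Akt isoform most tied to insulin action, read 1176, 968 and 970 on the IGF1R arrays and 1592, 1527 and 1642 on the IGF1R-caPI3K arrays. It rose by 0.62 ± 0.10 (adjusted p = 0.0117), while Akt1 stood at -0.02 ± 0.16 (adjusted p = 0.935). Rps6kb2, an S6 kinase, read 142, 55.5 and 79.5 on the IGF1R arrays against 240, 275 and 309, a rise of 1.68 ± 0.33 (adjusted p = 0.0175). Its IGF1R signals reach down to those of Y-linked genes, a measure of background in females, which reached 59.4, so the size of its rise, 1.16 to 2.04 over the alternatives, is uncertain. Rps6kb2 was called in 12 of 19 alternatives and Akt2 in 17 of 20. Both genes were also high on the IGF1R-dnPI3K arrays: 1565 to 2533 for Akt2 and 329 to 497 for Rps6kb2. The groups did not overlap for either gene.

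Of 14 tested FoxO factors and targets 2 fell (14.3%, beside 5.13% of all genes) and none rose. Both were in the branch of antioxidant enzymes. Cat, catalase, read 2129, 1931 and 2320 on the IGF1R arrays and 1375, 1426 and 1477 on the IGF1R-caPI3K arrays. Its fall was -0.57 ± 0.09 (adjusted p = 0.0112). Another probe set of Cat changed by -0.26. Sod2, the mitochondrial superoxide dismutase, read 2894, 2927 and 2659 against 2082, 2070 and 2060, a change of -0.45 ± 0.08 (adjusted p = 0.0124). The IGF1R-dnPI3K arrays read 697 to 1771 for Cat and 2082 to 2599 for Sod2. In neither gene did the IGF1R and IGF1R-caPI3K arrays overlap, and both were called in 18 of 20 alternatives. The other targets did not pass, among them Gadd45a (-0.17), Pdk4 (-0.21), Ccng2 (-0.12) and Cdkn1a (0.48), as did Foxo3 (-0.09).

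The start regions of the 2 FoxO targets that fell are shown with that of Myl1, which rose, as RefSeq gives them for build GRCm38.p6, 250 bases before to 50 after the gene's start, 5' to 3' on the gene's strand. Capitals mark 4 motifs, searched on either strand. The core that FoxO factors bind is TGTTTAC. The other 3 are common elements of start regions: the CCAAT box, known by its letters, the GC box with the letters GGGCGG bound by the factor Sp1, and the TATA box, here searched as TATAAA. Cat lies at chr2:103485104-103485403 on the minus strand, Sod2 at chr17:13007589-13007888 on the plus strand and Myl1 at chr1:66945007-66945306 on the minus strand.
Cat: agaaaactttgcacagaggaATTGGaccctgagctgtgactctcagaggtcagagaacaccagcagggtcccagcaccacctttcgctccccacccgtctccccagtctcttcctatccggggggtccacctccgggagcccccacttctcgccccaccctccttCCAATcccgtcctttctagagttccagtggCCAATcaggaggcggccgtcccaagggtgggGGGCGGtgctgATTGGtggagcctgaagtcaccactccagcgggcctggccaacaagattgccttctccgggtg
Sod2: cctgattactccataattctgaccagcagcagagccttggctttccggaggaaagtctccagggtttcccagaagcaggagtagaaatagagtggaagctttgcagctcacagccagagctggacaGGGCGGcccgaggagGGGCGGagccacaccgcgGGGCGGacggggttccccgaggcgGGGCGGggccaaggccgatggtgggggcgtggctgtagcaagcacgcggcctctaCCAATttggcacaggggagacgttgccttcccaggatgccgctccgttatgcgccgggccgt
Myl1: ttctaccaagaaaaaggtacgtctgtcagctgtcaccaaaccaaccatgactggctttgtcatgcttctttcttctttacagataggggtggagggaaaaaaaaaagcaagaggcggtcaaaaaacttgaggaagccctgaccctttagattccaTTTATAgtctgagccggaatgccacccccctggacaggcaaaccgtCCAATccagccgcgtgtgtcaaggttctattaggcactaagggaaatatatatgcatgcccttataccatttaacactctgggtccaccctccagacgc
Cat held 4 CCAAT boxes and 1 GC box, Sod2 1 and 4, and Myl1 1 CCAAT box and 1 TATA box. None of the 3 windows held the FoxO core. Of all 32851 RefSeq windows of this length, 3.65% held the FoxO core, 37.4% a CCAAT box, 35.7% a GC box and 13.6% a TATA box. Among windows of the genes tested these shares were 2.50%, 36.7%, 62.1% and 8.22%.

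In the list of skeletal muscle isoforms 2 of 13 rose (15.4%) and 1 fell (7.69%), beside 4.59% and 5.13% of all genes. Myl1, a light chain of fast skeletal myosin, read 6705, 7207 and 6118 on the IGF1R arrays, 10107, 10603 and 11898 on the IGF1R-caPI3K arrays and 1346, 2189 and 2419 on the IGF1R-dnPI3K arrays. It rose by 0.70 ± 0.09 (1.63-fold, adjusted p = 0.00561), and the 3 groups did not overlap. Casq1, the skeletal calcium buffer calsequestrin 1, read 5592, 4473 and 5422 against 6736, 7298 and 6592, with 1711 to 2954 on the IGF1R-dnPI3K arrays. Its rise of 0.42 ± 0.10 (adjusted p = 0.029) did not pass after quantile normalization (0.33, adjusted p = 0.0726), while that of Myl1 did (0.57, adjusted p = 0.00591). Ckm, the muscle creatine kinase, changed by -0.59 ± 0.08 on its brightest probe set, from 2641 ± 163 to 1756 ± 41.2 (SD, n = 3 each; adjusted p = 0.00696). That probe set may share targets by its name, and a dimmer one changed by 0.79, so the direction for Ckm differs between them.

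Sarcomere genes are among the brightest on the array, and their direction turned with the scaling. On the deposited scale 5 of 18 rose (Myl2, Myl3, Mybpc3, Tnnc1 and Myh7), 27.8% beside 4.59% of all genes. Tpm1, alpha tropomyosin, fell (-0.51), but after quantile normalization none of the list rose and 5 fell. Myl2, the ventricular regulatory light chain, read 18898, 18627 and 19077 against 23178, 23280 and 23682, a change of 0.31 ± 0.05 (adjusted p = 0.0107) that went to 0.10 (adjusted p = 0.207) after quantile normalization. The 10 brightest called genes, these 5 risers with Acta1, Rpl41, Cox6a2, Eef1a2 and Chchd10, all rose on the deposited scale and with a common median, and 1, Rpl41, was called after quantile normalization. Fetal and stress genes shared this pattern: 3 of 13 rose (Myh7, Fhl1 and Acta1, 23.1% of the list), and after quantile normalization none rose and 1 fell. The probe set of Myh7 may share targets, and its other probe set changed by -0.41. Nppa, atrial natriuretic peptide, read 3439, 2960 and 2832 against 4096, 3416 and 4237 and did not pass (0.35 ± 0.11, adjusted p = 0.0771), nor did Nppb (0.25 ± 0.07, adjusted p = 0.0542). Myh6 changed by 0.04 ± 0.06 (adjusted p = 0.689) on the deposited scale and was called lower after quantile normalization (-0.18, adjusted p = 0.0391).

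Calcium and conduction genes held a few falls, of which only that of Ryr2 was stable. Ryr2, the channel that releases calcium from the sarcoplasmic reticulum at each beat, read 7197, 6733 and 6909 on the IGF1R arrays and 4065, 4464 and 4292 on the IGF1R-caPI3K arrays, with 4066 to 5294 on the IGF1R-dnPI3K arrays. It fell 1.63-fold (-0.70 ± 0.07, adjusted p = 0.00473), the groups stood far apart, and it was called in 19 of 20 alternatives. None of the other 11 calcium handling genes passed, so 8.33% of that list fell, beside 5.13% of all genes. Atp2a2, the pump that refills the store, stood at -0.15 ± 0.06 (adjusted p = 0.172). Of 13 ion channel and gap junction genes 2 fell (15.4%). Kcnd2, a potassium channel of the transient outward current, went from 310 ± 53.6 to 158 ± 29.5 (SD, n = 3 each; -0.97 ± 0.20, adjusted p = 0.0199). Gja1, the ventricular gap junction protein connexin 43, changed by -0.36 ± 0.09 (adjusted p = 0.0425) on 1 probe set and by -1.17 on the other, which also passed, and the first was not called with a common median (adjusted p = 0.128). The probe sets of Kcnd2 and Gja1 may share targets, as their names mark. Kcnd2 was called in 11 of 18 alternatives and the first probe set of Gja1 in 8 of 19.

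**Figure D3:**
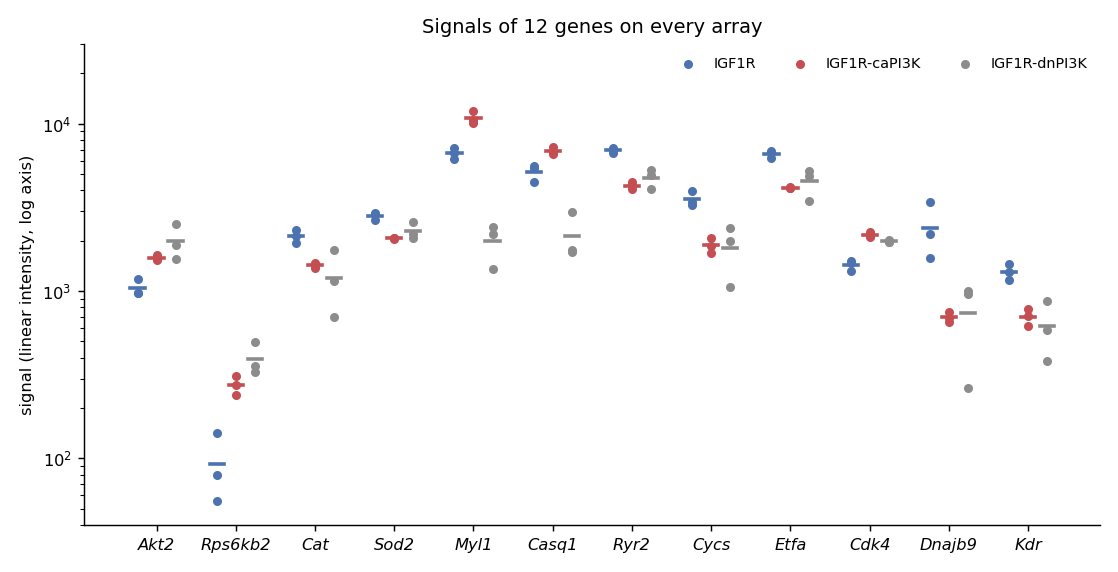
Signal of 12 genes on each of the 9 arrays (log axis), with a bar at the mean of each group of 3. For each of the 12, all chosen among called genes, the IGF1R and IGF1R-caPI3K arrays do not overlap, as for 33.4% of all probe sets tested. Myl1 and Casq1 are low on the IGF1R-dnPI3K arrays (1346 to 2419 and 1711 to 2954).

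Some fatty acid genes fell. Of 25 tested for uptake and oxidation 5 fell (20%, beside 5.13% of all genes) and none rose, and the median was -0.18. After quantile normalization 7 fell and with a common median 3, while none was called with all 9 arrays in the fit. Etfa, a subunit of the flavoprotein that passes electrons from acyl-CoA dehydrogenases, read 6659, 6227 and 6869 against 4127, 4204 and 4123 (-0.66 ± 0.07, adjusted p = 0.00473). Acadl, the long-chain acyl-CoA dehydrogenase, read 5365, 5877 and 6684 against 3238, 4166 and 4456 (-0.60 ± 0.13, adjusted p = 0.0228). The groups did not overlap in either, and the IGF1R-dnPI3K arrays spread from 3479 to 5251 for Etfa and from 1279 to 5278 for Acadl. Acads, Decr1 and Fabp4 were the others, and Fabp4 is made mainly by fat and endothelial cells. The main heart fatty acid carrier Fabp3 (-0.22) and the transporter Cd36 (-0.47) did not pass. None of 20 glycolysis and glycogen genes passed, with a median of 0.05, but 3 rose with a common median (median 0.16).

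In the citric acid cycle 2 of 18 fell (11.1%, beside 5.13% of all genes), Dld and Sdha. After quantile normalization 5 fell, and with a common median 2 fell and 1 rose. Dld, the dihydrolipoamide dehydrogenase shared by the pyruvate and oxoglutarate dehydrogenases, read 5888, 5886 and 5991 against 3813, 4047 and 4187 (-0.56 ± 0.07, adjusted p = 0.0055). The arrays stood far apart on either side, and the IGF1R-dnPI3K arrays read 3048 to 4726. Sdha, the flavoprotein of complex II, changed by -0.45 ± 0.08 (adjusted p = 0.0129). Oxidative phosphorylation split: 11 of 48 rose (22.9%) and 5 fell (10.4%) on the deposited scale. These counts were 4 and 9 after quantile normalization, and 14 and 3 with a common median. Cytochrome c (Cycs), which carries electrons from complex III to complex IV, read 3431, 3292 and 3947 against 1693, 2081 and 1850, a fall of -0.92 ± 0.11 (adjusted p = 0.00473) that held under both other scalings. On the IGF1R-dnPI3K arrays Cycs read 1058 to 2381. Cox7b, a complex IV subunit, also fell (-0.58 ± 0.08, adjusted p = 0.0061), with Cox4i1, Ndufv2 and Cox6c. The probe set of Cox4i1 may share targets, and its other probe set changed by 0.40. Ndufb7, a complex I subunit, rose from 7586 ± 733 to 11239 ± 412 (SD, n = 3 each; 0.57 ± 0.08, adjusted p = 0.00713). Atp5l rose by 0.45 on its brightest probe set and changed by -0.78 on another that was called lower. The mitochondrial porins Vdac2 (-0.86 ± 0.11, adjusted p = 0.0061) and Vdac3 (-0.40 ± 0.08, adjusted p = 0.0228) fell. The probe set of Vdac2 may share targets, and its other probe set changed by -0.34 without passing.

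**Figure D4:**
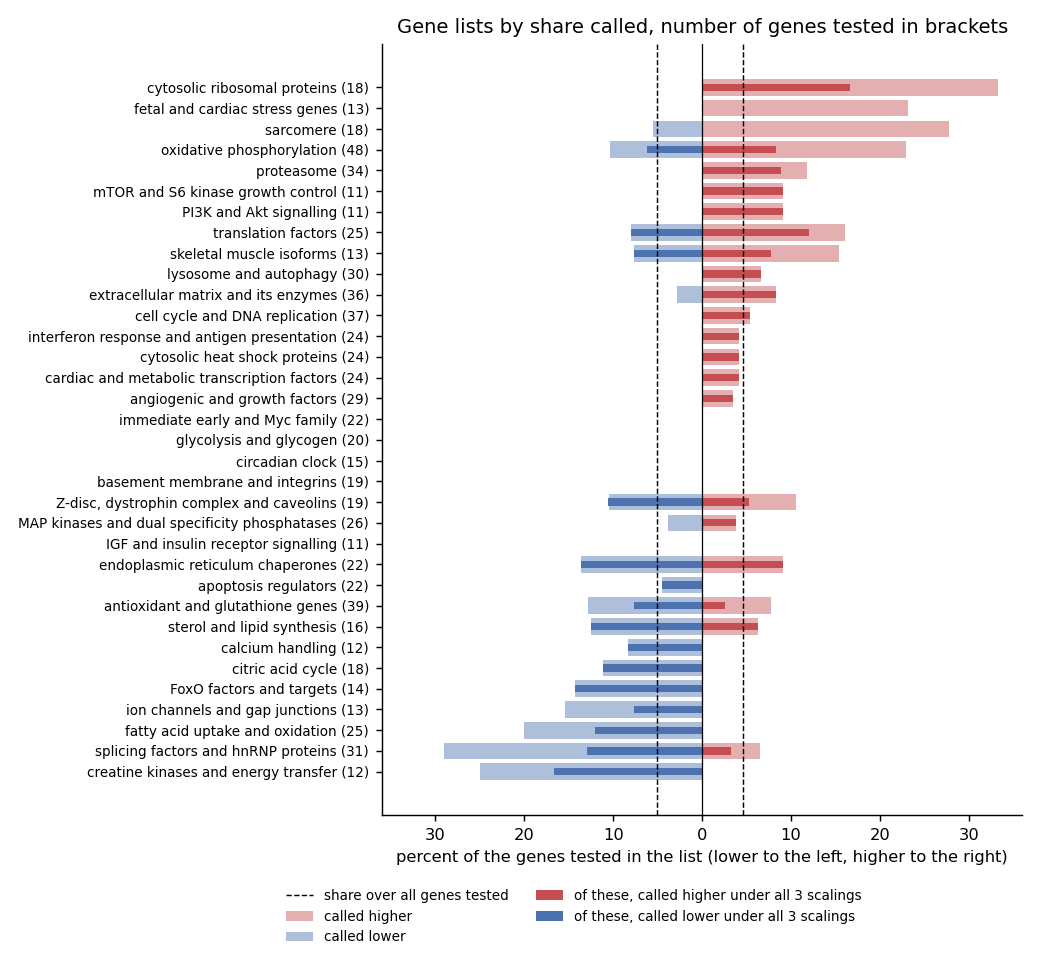
Share of the tested genes of each pathway list with at least 10 tested that were called higher (right) or lower (left), with the share called under all 3 scalings as the narrow bar and the shares over all genes (4.59% and 5.13%) as dashed lines. The 5 higher sarcomere genes and the 3 higher fetal and stress genes have no narrow bar.

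Genes of protein synthesis rose in part. Of 18 cytosolic ribosomal protein genes 6 rose and none fell (3 rose and 1 fell after quantile normalization, 7 rose with a common median). Rps18 read 9602, 8891 and 8250 against 11724, 12154 and 11988, with 12580 to 16514 on the IGF1R-dnPI3K arrays. Its rise of 0.43 ± 0.07 (adjusted p = 0.0113) went to 0.29 (adjusted p = 0.0285) after quantile normalization. Rpl41, on a probe set that may share targets, and Rpl37a also rose under all 3 scalings. Of 25 translation factors 4 rose (16%) and 2 fell (8%). The elongation factor genes Eef1a1 (0.43 ± 0.07, adjusted p = 0.0106) and Eef1d (0.44 ± 0.08, adjusted p = 0.0146) rose, as did Eef1a2 and Eif2s3x. The initiation factor subunits Eif3a (1377 ± 24.3 to 824 ± 85.0, SD, n = 3 each; -0.75 ± 0.10, adjusted p = 0.00669) and Eif3e (-0.71 ± 0.12, adjusted p = 0.0106) fell. The IGF1R-dnPI3K arrays read 505 to 934 for Eif3a and 267 to 550 for Eif3e.

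Splicing factors and hnRNP proteins, which package and splice pre-mRNA, had 9 falls and 2 rises among 31 genes and a median of -0.20. These shares were 29% and 6.45%, beside 5.13% and 4.59% of all genes. After quantile normalization 8 fell and 1 rose, and with a common median 4 fell and 2 rose. Hnrnpc read 643, 748 and 772 on the IGF1R arrays and 439, 489 and 427 on the IGF1R-caPI3K arrays (-0.67 ± 0.12, adjusted p = 0.0126). Rbm39, a splicing coactivator, read 1005, 1016 and 991 against 501, 682 and 593 (-0.77 ± 0.13, adjusted p = 0.0106). On the IGF1R-dnPI3K arrays these genes read 194 to 497 and 279 to 849, while the 6 arrays compared did not overlap in either. The other probe set of Rbm39 changed by -0.13 and did not pass (adjusted p = 0.662). Hnrnpa2b1 fell on both of its probe sets that were tested (-0.44 and -0.75, both called). Snrpb, a core protein of the small nuclear ribonucleoproteins, went the other way (0.53 ± 0.06, adjusted p = 0.00489), on a probe set that may share targets.

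Of the protein degradation genes, 4 of 34 proteasome genes rose (11.8%, beside 4.59% of all genes) and none fell. The 4 were Psmd4 (0.46), Psmd3 (0.43), Psmb10 (0.40) and Psma4 (0.33), the last not called after quantile normalization (adjusted p = 0.0557). Of 30 lysosome and autophagy genes 2 rose (6.67%, near the 4.59% of all genes). Atp6v0e2, a subunit of the proton pump that acidifies lysosomes, read 1068, 1223 and 1156 against 2146, 1977 and 1987 and rose by 0.83 ± 0.09 (1.77-fold, adjusted p = 0.00473). Sqstm1, the autophagy receptor p62, rose by 0.49 ± 0.09 (adjusted p = 0.0124). The groups did not overlap for any of these 6 genes, as for 33.4% of all probe sets tested. Endoplasmic reticulum chaperone genes split, 3 of 22 lower (13.6%) and 2 higher (9.09%), with 3 and 3 after quantile normalization and 3 and 5 with a common median. Dnajb9, a cochaperone induced by unfolded protein, read 1577, 2195 and 3406 against 655, 690 and 754 (-1.70 ± 0.23, adjusted p = 0.00669). Pdia3 (-0.88 ± 0.15, adjusted p = 0.0112) and Xbp1 (-0.50 ± 0.10, adjusted p = 0.0204), the transcription factor of the unfolded protein response, fell too. The IGF1R-dnPI3K arrays read 264 to 1003 for Dnajb9, 355 to 1169 for Pdia3 and 434 to 1139 for Xbp1. The 3 IGF1R arrays spread widely for Dnajb9, and its other probe set changed by -0.12. Ero1a (0.60 ± 0.12, adjusted p = 0.0198) and P4hb (1.16 ± 0.28, adjusted p = 0.0325), partners in disulfide formation, rose on probe sets that may share targets. Their other probe sets did not pass, at 0.06 for Ero1a (adjusted p = 0.704) and -0.22 for P4hb.

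Of 37 cell cycle genes 2 rose (5.41%, near the 4.59% of all genes), Cdk4 and Ccne1, and none fell. Cdk4, a kinase of the G1 phase, read 1511, 1471 and 1313 against 2098, 2255 and 2147, with 1967 to 2014 on the IGF1R-dnPI3K arrays. It rose by 0.60 ± 0.09 (1.52-fold, adjusted p = 0.00865) and was called in 19 of 20 alternatives, but its other probe set changed by -0.09. Ccne1, cyclin E1, rose from 226 ± 22.5 to 368 ± 52.4 (SD, n = 3 each; 0.70 ± 0.16, adjusted p = 0.0285). The proliferation markers Mki67 (-0.14) and Pcna (-0.21) did not pass. Among the growth factor genes Pdgfa rose (0.42 ± 0.11, adjusted p = 0.0387), and Vegfa (-0.22 ± 0.21) and Vegfb (-0.09 ± 0.11) did not pass. Mapkapk2, a kinase activated by p38, rose from 4691 ± 352 to 7229 ± 443 (SD, n = 3 each; 0.62 ± 0.08, adjusted p = 0.0061), and its other probe set changed by -0.20. Of the transcription factors Esrra, a nuclear receptor of mitochondrial genes, rose (0.47 ± 0.10, adjusted p = 0.0222), and its other probe set stood at -0.07. None of 22 immediate early genes and none of 15 clock genes passed.

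Matrix and membrane genes moved singly. Of 36 matrix genes 3 rose (8.33%, beside 4.59% of all genes) and 1 fell (2.78%, beside 5.13%), with a median of 0.17. Chad, chondroadherin, read 110, 95.1 and 115 against 201, 247 and 291 (1.20 ± 0.21, adjusted p = 0.0126), and Bgn, the proteoglycan biglycan, read 6245, 6269 and 6240 against 8074, 7773 and 8503 (0.38 ± 0.06, adjusted p = 0.0121). Both were separate between the groups, though another probe set of Bgn changed by -0.15. Postn, Col1a1 and Col3a1, which mark activated fibroblasts, overlapped between the groups and did not pass (0.21, 0.46 and -0.26). Other probe sets of Col1a1 (-0.13) and Col3a1 (-0.53 and -0.57) did not pass either. In the list of Z-disc, dystrophin complex and caveolin genes 2 of 19 rose and 2 fell (10.5% each). After quantile normalization 1 rose and 3 fell. Dmd, dystrophin, which ties the cytoskeleton to the membrane, read 357, 252 and 299 against 78.4, 132 and 83.1, with 44.8 to 124 on the IGF1R-dnPI3K arrays (-1.65 ± 0.25, adjusted p = 0.00963). Cav3, the muscle caveolin, fell from 2759 ± 162 to 1614 ± 157 (SD, n = 3 each; -0.78 ± 0.10, adjusted p = 0.00576), but its other probe set stood at 0.03. On the IGF1R-dnPI3K arrays Cav3 read 1388 to 1904 on its brightest probe set, which may share targets. Both falling genes were separate between the IGF1R and IGF1R-caPI3K arrays. The IGF1R-caPI3K mean of Dmd (98.0) and the IGF1R mean of Chad (107) are close to the background of up to 59.4. The sizes of their changes, -1.89 to -1.33 and 1.085 to 1.392 over the alternatives, are therefore uncertain.

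Redox genes went both ways, with 5 of 39 lower (12.8%) and 3 higher (7.69%), beside 5.13% and 4.59% of all genes. After quantile normalization 6 were lower and 1 higher, and with a common median 3 and 3. Txnrd3, a thioredoxin and glutathione reductase, read 175, 192 and 280 against 1437, 753 and 944, with 653 to 812 on the IGF1R-dnPI3K arrays. It rose 4.77-fold (2.26 ± 0.25, adjusted p = 0.00473), the largest rise among the brightest probe sets of genes with means above 50 in both groups, and passed in each of the 19 alternatives that tested it. Its single tested probe set may share targets. Gpx3, the secreted glutathione peroxidase, also rose (0.63, adjusted p = 0.0295). Sod1, the cytosolic superoxide dismutase, read 3541, 2990 and 2906 against 1802, 2074 and 2247 (-0.62 ± 0.11, adjusted p = 0.0132) without overlap. On the IGF1R-dnPI3K arrays Sod1 read 1789 to 2082. Gsta4 and Prdx3 fell with Sod1, as did Cat and Sod2. In sterol synthesis Hmgcs1, which makes HMG-CoA, fell (755 ± 26.5 to 467 ± 36.2, SD, n = 3 each; -0.69 ± 0.11, adjusted p = 0.00972) with Fdft1, squalene synthase (-0.68 ± 0.14, adjusted p = 0.0228), while Fdps, which makes the farnesyl precursor, rose (0.62 ± 0.12, adjusted p = 0.0179). The IGF1R-dnPI3K arrays read 269 to 522 for Hmgcs1, 437 to 948 for Fdft1 and 459 to 559 for Fdps. The probe set of Fdps may share targets, and its other probe set changed by 0.57 without passing (adjusted p = 0.0557).

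Markers of other cell types were read as whole lists, and in whole tissue fewer cells of a type and less RNA per cell cannot be told apart. Of 14 endothelial markers 3 fell (21.4%, beside 5.13% of all genes) and none rose on the deposited scale. But 2 fell and 1 rose after quantile normalization, and 1 fell and 2 rose with a common median. Their summed signal was 13147 to 15272 in IGF1R hearts and 11713 to 13248 in IGF1R-caPI3K hearts. Kdr, the main receptor of vascular endothelial growth factor, read 1157, 1307 and 1459 against 708, 622 and 776 (-0.90 ± 0.12, adjusted p = 0.00675) and held under both other scalings, while Pecam1 (-0.57, adjusted p = 0.0425) was not called under either. On the IGF1R-dnPI3K arrays Kdr read 383 to 878. Cdh5 (-0.45, adjusted p = 0.0325) was not called with a common median (adjusted p = 0.078), and Vwf (0.37), Emcn (0.39) and Flt1 (-0.05) did not pass. Of 6 adipocyte markers tested, of 11 on the array, 2 fell (33.3%, beside 5.13% of all genes). They were Fabp4, with means of 668 and 355, and the hormone gene Lep (744 ± 131 to 427 ± 51.9, SD, n = 3 each, change -0.79 ± 0.16, adjusted p = 0.0192). The summed signal was 2968 to 3326 against 2215 to 2489 without overlap. These 2 called genes are part of that sum, so it is no separate support. The part of fat cells in the fall of Fabp4, counted above among fatty acid genes, was not tested. Of 15 macrophage markers 2 rose (13.3%, beside 4.59% of all genes), the complement genes C1qc (0.56 ± 0.12, adjusted p = 0.0222) and C1qa (0.44 ± 0.11, adjusted p = 0.0343). The sums were 10170 to 11922 against 11112 to 12451, and C1qb stood at -0.06.

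Cd79a, a chain of the B cell receptor, read 249, 330 and 283 on the IGF1R arrays, 81.4, 82.8 and 76.9 on the IGF1R-caPI3K arrays and 248, 220 and 162 on the IGF1R-dnPI3K arrays. It fell 3.56-fold (-1.83 ± 0.20, adjusted p = 0.00473), the largest fall by the same measure on the deposited scale, with no overlap. Its IGF1R-caPI3K mean of 80.4 is close to the background of up to 59.4, so the size of the fall, -1.85 to -1.33 over the alternatives, and its rank are uncertain. It was the 1 called gene of 6 tested lymphocyte markers, of 14 on the array. The B cell genes Ms4a1 (1.10), Jchain (0.16) and Ighm (0.10) did not pass, and the summed signal of the list was 1307 to 1428 against 1155 to 1446. Of 13 fibroblast markers Ddr2 rose (0.56 ± 0.13, adjusted p = 0.0349), and none of 10 smooth muscle, 4 atrial, 4 red blood cell, 5 nerve or 4 mesothelial markers passed, though 1 red blood cell marker rose with a common median.

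Other large changes fell outside the lists. Tradd, the adaptor of the TNF receptor, read 254, 198 and 212 against 331, 905 and 1414 (1.77 ± 0.43, adjusted p = 0.0355), so its 3 IGF1R-caPI3K arrays disagreed over a wide range. Rdh13, a mitochondrial retinol dehydrogenase, read 89.0, 126 and 41.2 against 258, 304 and 225 (1.75 ± 0.38, adjusted p = 0.0243). Ephx1, the microsomal epoxide hydrolase (1.50 ± 0.31, adjusted p = 0.0215), the growth factor midkine (Mdk, 1.40 ± 0.36, adjusted p = 0.043) and the elastase Cela1 (1.39 ± 0.22, adjusted p = 0.00987) followed. The signal of Npy, a neuropeptide of sympathetic nerves, rose from 97.5 ± 6.25 to 226 ± 77.6 (SD, n = 3 each; 1.15 ± 0.28, adjusted p = 0.0359). These IGF1R means were 85.5 for Rdh13, 97.5 for Npy and 102 for Mdk, close to the background of up to 59.4, so the sizes of these rises are uncertain. Tradd was called in 9 of 19 alternatives, Rdh13 in 12 of 19 and Ephx1 in 12 of 20. Mdk was called in 11 of 19, Npy in 9 of 16 and Cela1 in 18 of 20. Among the falls, Gpcpd1, a glycerophosphocholine phosphodiesterase, read 1514, 1586 and 1428 against 299, 634 and 630 (-1.61 ± 0.26, adjusted p = 0.0103). On the IGF1R-dnPI3K arrays Gpcpd1 read 150.5 to 1136. Fxr1, an RNA-binding protein of striated muscle, read 486, 521 and 419 against 173, 243 and 218 (-1.18 ± 0.16, adjusted p = 0.00676). Apobec2, a muscle member of the cytidine deaminase family (-1.14 ± 0.11, adjusted p = 0.00473), Prkce, protein kinase C epsilon (-1.11 ± 0.22, adjusted p = 0.0197), and Smarca2, the ATPase of a chromatin remodelling complex (-1.09 ± 0.14, adjusted p = 0.006), also fell. The dimmer probe set changed by -0.23 for Fxr1, by 0.02 for Apobec2 and by 0.11 for Prkce. The probe sets of Tradd and Gpcpd1 and the brightest of Apobec2 may share targets, as their names mark.

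Probe sets of the same gene often disagreed. Of the called genes 124 had more than 1 probe set tested, and the next brightest had the same sign in 71 and the opposite sign in 53. Where its signal was within 1 log2 unit of the brightest, the sign was shared in 29 of 45, and where neither name marks shared targets, in 24 of 42. In 12 genes another probe set was called in the same direction, among them Gja1, Hnrnpa2b1, Hspb2 and Actb, the cytoplasmic actin, which changed by -0.82 on both. Both probe sets of Gja1 and of Actb and the brightest of Hspb2 have names that mark possible shared targets. Whether these paired readings are independent was not tested. In 5 genes (Actn1, Atp5l, Copb2, Map4k4 and Ndel1) another was called in the opposite direction.

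**Figure D5:**
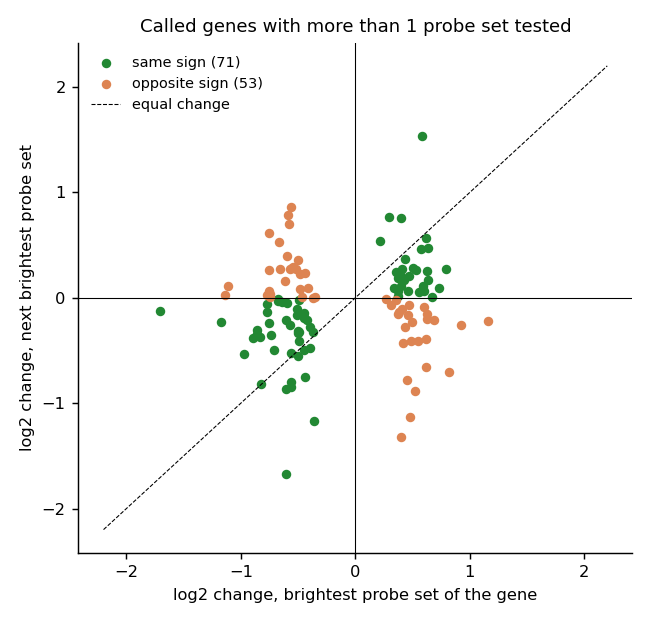
Log2 change of the next brightest probe set against that of the brightest for the 124 called genes with more than 1 tested, with a dashed line of equal change. The 71 genes of equal sign are green and the 53 of opposite sign orange.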

How the data were processed

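RNA from the ventricles of 9 mice was measured on 1 array per mouse, and groups came from the sample titles, which also number each mouse. The authors deposited 1 linear intensity per probe set and array, for 12488 probe sets including 66 controls. The 2% trimmed means of the deposited intensities are alike on all arrays, so each had been scaled to a common mean. No source used here names the algorithm behind them or gives detection calls. No pair of the 6 arrays compared was a copy (22 to 29 identical values). Precision is limited by having 3 arrays a group.

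The deposited scale was kept, low values were set to 32.9 (the percentile 20 of positive values) and taken to log2. A probe set was tested if it exceeded the percentile 40 of the array in 3 or more of the 6. limma 3.58.1 (R 4.3.3), with a variance trend over signal, compared the 6 arrays, and Benjamini-Hochberg adjustment ran over all 7595 probe sets. Control ratios were compared by exact permutation. Symbols came from the platform annotation: 10833 probe sets had 1 symbol, and the 396 with several and 1193 with none named no gene. RefSeq held 10817 of the former and changed 0 symbols. A gene was read from its probe set with the highest mean. Probe set names ending in _s, _f, _r, _i or _g were taken to mark possible shared targets. Of 1206 entries in 46 gene lists 847 were tested. Start regions came from RefSeq, GRCm38.p6.

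Named genes were the 15 called genes of largest rise and of largest fall whose groups do not overlap and whose means exceed 50, up to 4 called members of each list (or the 2 of lowest p), the 10 brightest called genes and a fixed set of pathway and cardiac genes. Some that this rule names are left out. Pik3cb, Gsk3b, Foxo1 and Pln, in the fixed set, were not tested. List members given with values beyond this rule, and Actb, Actn1, Copb2, Map4k4 and Ndel1, were chosen after their values were seen. The members and lists were chosen with earlier results of these data known.

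On simulated data with 200 of 7595 probe sets changed between IGF1R-caPI3K and IGF1R arrays, the fit recovered 19.7% of log2 changes of 0.5, 69.3% of changes of 1 and 91.2% of changes of 2, and 5.52% of its calls were false. The simulated noise was independent and normal, with spreads shuffled across probe sets and no shift that followed signal or array. The 5.52% is therefore not the false share of the 737 calls. Alternatives were other scalings, floors, filters and variance models, array weights, all 9 arrays, the mouse number series, probe sets with shared names left out and each array left out in turn.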

Additional observations from a re-analysis of the deposited data

Results flagged for a closer look

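Control transcripts, which entered no comparison of genes, separated the IGF1R arrays from the IGF1R-caPI3K arrays. The 3' to 5' ratio of CreX had a mean of 1.80 on the IGF1R-caPI3K arrays against 1.18 on the IGF1R arrays, that of BioDn 6.41 against 3.73 and that of Gapdh 0.862 against 0.774, each without overlap. BioC also did not overlap, in the opposite direction (0.606 against 0.658). The exact permutation p of each was 0.1 (0.2 adjusted over 8 ratios), the lowest this design allows. On the IGF1R-dnPI3K arrays CreX read 1.79 to 1.83 and BioDn 5.41 to 6.04. The part of these differences in the gene results was not tested.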

How the results depend on the processing

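Of 737 called probe sets (328 higher, 409 lower), 17 (12 and 5) passed with all 9 arrays in the fit, 276 (95 and 181) with no filter on low signals, which tested 12422, and 334 (101 and 233) with no variance trend. Scaling to a common median gave 617 higher and 255 lower. Leaving out 1 array gave 245 to 515 calls, 97 to 233 higher and 148 to 282 lower. The mouse numbers fall into series, and mice of the 1400 series alone, 2 against 2, gave 4 calls (3 and 1), with 1438 at an unadjusted p under 0.05. With the series as a replicate block there were 680 calls (308 and 372), but deviations of arrays from their group means correlated between -0.07 and 0.06 across groups, so the numbers were not taken to pair the mice. The other alternatives gave counts within 1.5 times. Of 106 called named genes 84 were called under all 3 scalings, and Txnrd3 was the 1 called in every alternative that tested it. Some calls held in far fewer of the 20 alternatives, such as Acadl in 12, Esrra and C1qa in 11, Decr1 and Pdgfa in 9 and Psma4 in 8. Among the named genes 1 was called against the sign of its main value: Myh6, not called on the deposited scale, was called lower after quantile normalization (-0.18). Some others that were never called, such as Akt1, Pik3r2, Vegfa and Vegfb, also changed sign. The cause of these differences was not tested. Signals close to those of Y-linked probe sets, up to 59.4, leave the size of a change uncertain.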
